A study of Mus musculus with 6 samples.

Results

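The genes described here are 26 of the 55487 genes counted in the study. They belong to cholesterol synthesis and to its control by the sterol regulatory element binding proteins (SREBPs). They were chosen by name from the pathway, but with earlier results of these data known. All 26 were found by symbol and all 26 passed the filter on low counts. They were measured by RNA sequencing of the cerebellum of male mice at postnatal day 14, in 3 animals homozygous for a knockout allele of Galnt17 (Galnt17-/-, labelled Wbscr17KOKO after the gene's older name) and in 3 wild-type animals of the B6C3 stock, 1 library for each animal. The allele, Galnt17tm1.1(KOMP)Vlcg, came as sperm from the KOMP repository and was first bred into C57BL/6J, where no homozygous pups were born live. Live homozygotes were obtained after crosses to hybrids of C57BL/6J and C3H/He, so the knockout animals come from a mixed background and are not stated to be littermates of the wild types. No drug or other treatment was given in either group, per the labels. The knockouts are called KO and the wild types WT.

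Cholesterol is built from acetyl-CoA in a long chain of enzyme steps, through mevalonate, isoprenoid units, squalene and lanosterol. SREBP-2 and SREBP-1, encoded by Srebf2 and Srebf1, are membrane-bound transcription factors that are carried from the endoplasmic reticulum to the Golgi by SCAP when sterols are low, are cut there, and then raise the transcription of nearly every enzyme of the chain. INSIG proteins hold SCAP back when sterols are plentiful. The brain makes its own cholesterol because lipoproteins of the blood do not cross the blood-brain barrier, and demand is high in young animals, when oligodendrocytes wrap axons in myelin.

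The targeted gene, Galnt17, was counted 72, 80 and 63 times in KO against 1119, 729 and 963 times in WT, which fits the group labels of all 6 libraries. Reads counted in genes ranged from 17111611 to 29840046 per library. Gene levels varied more among the WT than among the KO libraries (median SD 0.0981 against 0.0533 on the log2 scale), and WT replicate 1 had the strongest relation of level to GC content (Spearman -0.22 across genes, against -0.07 to 0.14 in the other libraries). Reads that did not map made up 13.8% to 17.2% of the KO and 6.52% to 10.03% of the WT libraries, without overlap, and the part of this in the results was not tested. All 10 granule cell markers and all 10 Purkinje cell markers examined were detected, as in cerebellar tissue. Nothing states whether the animals came from separate litters, so p-values measure the spread between these animals only. In whole tissue, fewer cells of a type and less RNA per cell cannot be told apart.

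Most of the pathway stood at nearly the same level in both groups. Of the 26 genes, 1 fell in KO, 0 rose and 25 did not pass (edgeR quasi-likelihood test, Benjamini-Hochberg adjusted p below 0.05). The gene that fell was Acat2. Over all 18237 genes tested, 0.872% were lower, 0.784% were higher and 1.66% changed in either direction. At an unadjusted p below 0.05 there were 2 higher and 5 lower members, 26.9% of the 26, beside 17.6% of all genes. DESeq2 and limma-voom, which called 3.08% and 1.71% of all genes, also called 0 members higher and 1 lower. The median log2 fold change (KO over WT) was -0.04 over the members and -0.01 over all genes tested, with 12 members above and 14 below 0. The median absolute log2 fold change was 0.08 for the members and 0.12 for all genes. These 2 sets were not matched for level, and all genes include some with far fewer counts than most members.

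The intervals of single genes were narrow, and they cover the spread between these animals only. For 25 of the 26, the 95% confidence interval of the log2 fold change lay inside -0.5 to 0.5, which is 1.41-fold in either direction. The exception was Fdps, with an interval of -0.46 to 0.52, the only member with fewer than 463 counts in some library. Standard errors of the log2 fold change ran from 0.05 to 0.08 for the other 25 genes and reached 0.22 for Fdps. In 7 members (26.9%) the KO libraries lay wholly to one side of the WT libraries, 2 of them above and 5 below. Of all genes tested, 23.7% were separated in this way.

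**Figure D1:**
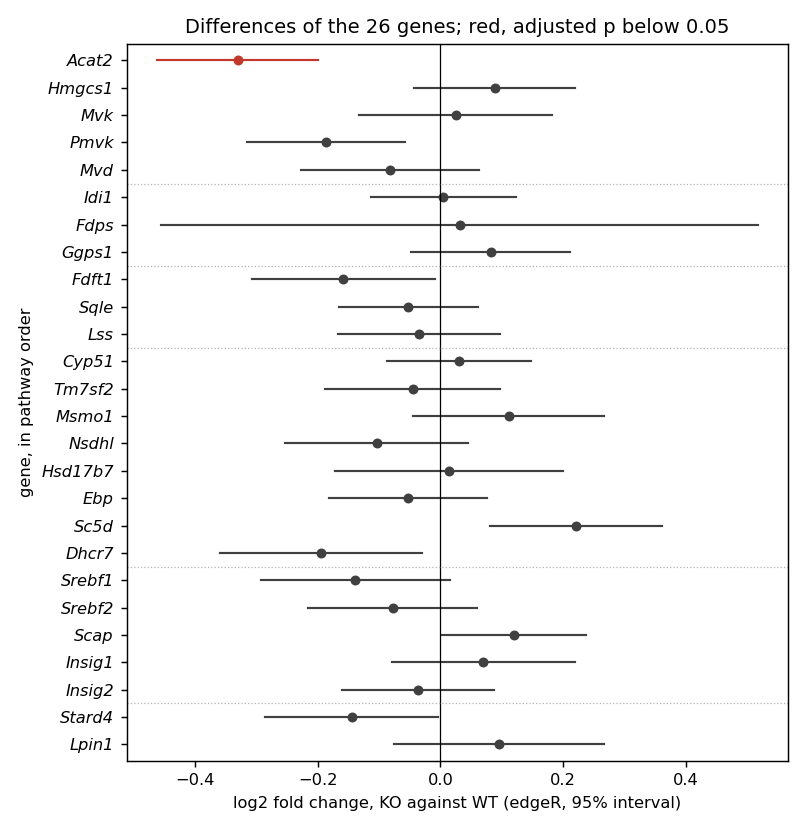
Log2 fold change of each of the 26 genes in KO against WT (horizontal axis) with its 95% interval from edgeR, genes in pathway order from top to bottom and dotted lines between the steps. Acat2, at -0.33, is the 1 gene drawn in red as passing, the others lie between -0.19 and 0.22, and the widest interval belongs to Fdps.

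Levels are given in CPM, a gene's counts scaled to the size of its library. Summed over the 26 genes, CPM came to 2146, 2057 and 2036 for KO against 2029, 2107 and 2149 for WT. The groups overlapped, and the lowest and the highest library were both WT. Counted gene by gene, WT replicate 1 lay above the mean of the WT libraries in 9 of the 26 genes, WT replicate 2 in 14 and WT replicate 3 in 18. The KO libraries lay above that mean in 13, 10 and 9 genes.

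**Figure D2:**
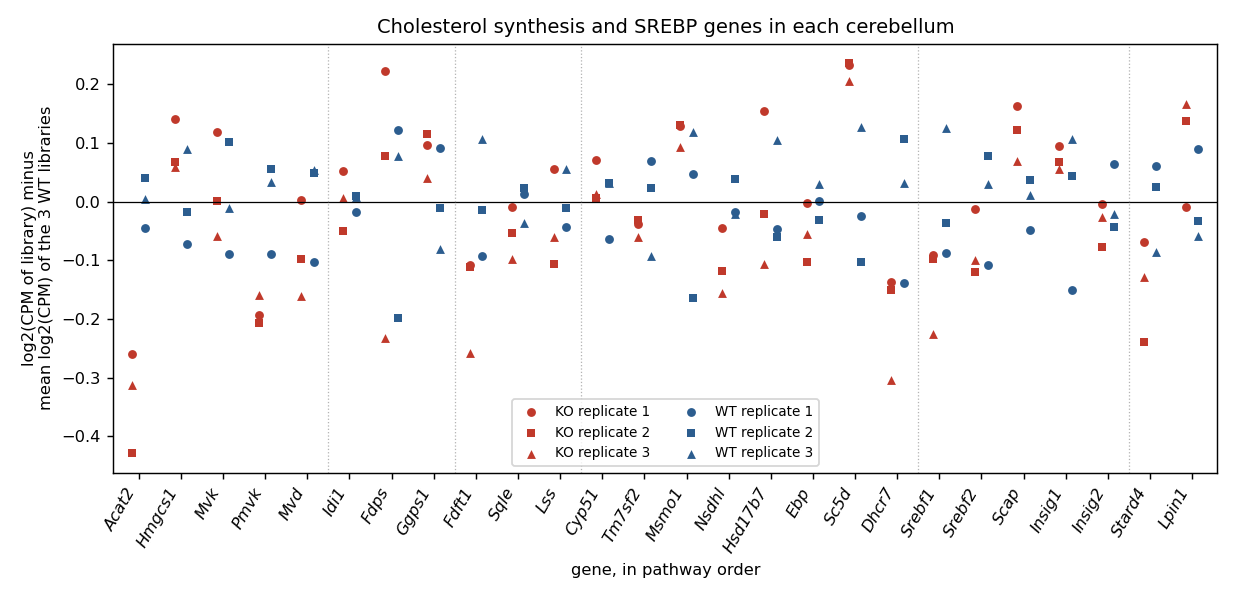
Each point is 1 library, given as log2 CPM of the gene minus the mean log2 CPM of the 3 WT libraries (vertical axis), with KO in red and WT in blue and the genes in pathway order. The red points of Acat2 and Pmvk lie below and those of Sc5d above all blue points, while most genes show red and blue points mixed.

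The first steps make mevalonate and charge it with phosphate. Of these 5 genes 1 fell and 4 did not pass, and their summed level was 495 ± 17.1 CPM in KO and 502 ± 23.6 CPM in WT (mean ± SD, n = 3 each, as for all group values below). Acat2 encodes the cytosolic thiolase that joins 2 acetyl-CoA molecules. It lies on chromosome 17, 12942890 to 12960747, minus strand (GRCm38, ENSMUSG00000023832). Its level was 60.1, 53.4 and 57.9 CPM in the KO libraries and 69.7, 74.0 and 72.1 CPM in the WT libraries. Every KO library was below every WT library. The fold change was 1.26-fold lower (57.1 ± 3.39 against 71.9 ± 2.15 CPM, log2 fold change -0.33, SE 0.06, edgeR adjusted p = 0.0238). The call did not survive the loss of 1 animal in 4 of 6 cases, with an adjusted p of 0.0598, 0.153 and 0.105 without KO replicates 1, 2 and 3 and 0.1 without WT replicate 2, while the log2 fold change stayed between -0.37 and -0.28. Its neighbour Acat3, a closely related thiolase gene named here for its likeness, had 18 to 39 counts per library. The KO and WT libraries of Acat3 overlapped (log2 fold change -0.52, SE 0.31, edgeR adjusted p = 0.408). How many reads of one copy were counted for the other was not tested. Of 22 other genes tested within 1 Mb of Acat2, 1 was called, AC166110.4, beside 1.66% of all genes. AC166110.4 was counted 7, 2 and 6 times in KO and 47, 32 and 41 times in WT (edgeR adjusted p = 0.0013). The part of the mixed strain background in the level of Acat2 was not tested.

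Hmgcs1, the synthase of the next step and a classic SREBP target, was at 299, 284 and 283 CPM in KO and 258, 268 and 289 CPM in WT, which overlap (log2 fold change 0.09, 95% interval -0.04 to 0.22). Hmgcs1 shares 12.1% of its exon bases with Gm48342 on the opposite strand. Pmvk, phosphomevalonate kinase, was at 46.4, 46.0 and 47.6 CPM in KO and 49.9, 55.2 and 54.3 CPM in WT. All 3 KO libraries were lower, yet the gene did not pass (log2 fold change -0.19, SE 0.06, edgeR adjusted p = 0.141). Without WT replicate 1 it did (adjusted p = 0.0238), in a fit that called 10.5% of all genes. Mevalonate kinase (Mvk) and mevalonate diphosphate decarboxylase (Mvd), the kinase and decarboxylase on either side of Pmvk, had log2 fold changes of 0.02 and -0.08 and overlapping libraries.

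The promoters of 3 members are shown because they differ in the motif through which SREBPs are best known to act. They are Hmgcs1, whose window alone held the sterol element, Acat2, the gene that fell, and Sc5d, the member with the largest positive fold change. Each is the 250 bases before the start from RefSeq (GRCm38.p6), 5′ to 3′ on the gene's strand, at chr13:119690101-119690350 (plus), chr17:12960726-12960975 (minus) and chr9:42264301-42264550 (minus). Capitals mark matches on either strand to the sterol element TCACNCCAC, to CCAAT (the box bound by NF-Y, a partner of SREBPs, which reads ATTGG on the other strand) and to the E-box CACGTG.
Hmgcs1: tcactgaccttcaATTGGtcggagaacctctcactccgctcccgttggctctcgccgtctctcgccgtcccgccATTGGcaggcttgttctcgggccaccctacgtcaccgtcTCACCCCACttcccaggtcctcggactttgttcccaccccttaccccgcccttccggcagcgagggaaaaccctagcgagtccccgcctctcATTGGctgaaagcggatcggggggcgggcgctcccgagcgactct
Acat2: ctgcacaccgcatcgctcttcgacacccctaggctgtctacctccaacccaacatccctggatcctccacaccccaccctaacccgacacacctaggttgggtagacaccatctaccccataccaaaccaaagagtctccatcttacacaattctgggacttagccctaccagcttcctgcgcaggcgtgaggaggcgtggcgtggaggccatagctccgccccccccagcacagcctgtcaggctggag
Sc5d: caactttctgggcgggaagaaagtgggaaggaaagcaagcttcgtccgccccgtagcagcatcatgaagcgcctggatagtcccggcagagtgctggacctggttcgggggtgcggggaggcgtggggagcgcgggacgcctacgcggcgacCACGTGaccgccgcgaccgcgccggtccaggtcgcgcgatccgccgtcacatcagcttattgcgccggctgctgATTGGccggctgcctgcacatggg

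In Hmgcs1 the sterol element begins 137 bases before the start and 3 inverted CCAAT boxes lie around it, at 237, 176 and 45 bases before the start. The Acat2 stretch held no match to any of the 3 motifs, and the Sc5d stretch held an E-box 98 bases and an inverted CCAAT box 24 bases before the start. The RefSeq table held windows of 300 bases (250 before to 50 after the start) for 22 of the 26 members, 30 windows in all. Fdft1, Fdps, Sqle and Stard4 had no entry. On either strand, the sterol element was found in 1 of the 22 (4.55%) and in 1.44% of all 27025 genes of the table. CCAAT was found in 19 of 22 members (86.4%) and 41.1% of all genes, and CACGTG in 5 of 22 (22.7%) and 8.09%. The 5 were Dhcr7, Hsd17b7, Insig1, Sc5d and Scap. The GC box GGGCGG was also in 19 of 22 (86.4%, against 38.2% of all genes). With the shorter core CACNCCAC the sterol element was found in 3 members, Acat2, Hmgcs1 and Insig1 (13.6%, against 7.12% of all genes). These are matches of letters in a short window, not measured binding sites.

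Next come the enzymes that assemble isoprenoid chains, none of which passed (0 of 3, 0 also at an unadjusted p below 0.05 in edgeR, and 0 in DESeq2 and limma-voom). Idi1, isopentenyl diphosphate isomerase, was at 54.8 ± 1.93 CPM in KO and 54.6 ± 0.57 CPM in WT. Its log2 fold change was 0.00, with a 95% interval of -0.11 to 0.12. Ggps1 makes geranylgeranyl diphosphate, which leaves the sterol chain for protein prenylation, and was at 74.5 ± 1.99 against 70.3 ± 4.25 CPM.

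Fdps, farnesyl diphosphate synthase, was counted 61, 43 and 30 times in KO against 46, 26 and 38 times in WT, far fewer than any other member. This level was singled out after it was seen. GENCODE release 21, which is not the Ensembl release named for the deposited counts, holds a readthrough gene on the same strand, Gm43738, whose exons cover 8 of the 10 exons and 76.4% of the 1237 bases of the Fdps transcript Fdps-201. Gm43738 itself had 0 counts over the 6 libraries. Gm43738 is also listed in the deposited counts, but its exons were not checked in the release used for them. Its part in the low count of Fdps was not tested, so the level of Fdps beside other members is uncertain.

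Squalene formation and ring closure gave 0 calls among 3 genes in edgeR, DESeq2 and limma-voom, with 1 gene, Fdft1, at an unadjusted p below 0.05. All 3 log2 fold changes were below 0, and the summed level was 297 ± 11.4 CPM in KO and 313 ± 5.02 CPM in WT. Fdft1, squalene synthase, commits farnesyl units to sterols. It was at 71.6, 71.3 and 64.5 CPM in KO and 72.3, 76.3 and 83.0 CPM in WT. The highest KO library was just below the lowest WT library, and the gene did not pass (log2 fold change -0.16, edgeR adjusted p = 0.26). Fdft1 shares 18.3% of its exon bases with Ctsb on the opposite strand, and reads of such a pair cannot be told apart without strand. Sqle, squalene epoxidase, a rate-controlling enzyme, was at 159 ± 4.96 against 165 ± 3.68 CPM, and Lss, which closes the ring to lanosterol, at 68.3 ± 3.99 against 70.05 ± 2.48 CPM. The libraries of both overlapped.

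The 8 enzymes that turn lanosterol into cholesterol split evenly, 4 above and 4 below 0, and none passed in edgeR, DESeq2 or limma-voom. An unadjusted p below 0.05 was reached by 2 of them, Sc5d and Dhcr7, in opposite directions. Sc5d inserts a double bond late in the chain, making 7-dehydrocholesterol, and Dhcr7 removes a double bond from that product to give cholesterol. Sc5d was at 132, 132 and 129 CPM in KO and 110.2, 104 and 122 CPM in WT. Every KO library was above every WT library, and the KO libraries were closer together than the WT libraries (131 ± 1.48 against 112 ± 9.25 CPM, 1.17-fold, log2 fold change 0.22, SE 0.06, edgeR adjusted p = 0.115). It passed without WT replicate 3 (0.0232) and when no filter on low counts was used (0.0187, in a fit that called 4.85% of all genes), and in none of the other 11 alternative fits.

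Dhcr7 was at 58.0, 57.5 and 51.6 CPM in KO and 57.9, 68.6 and 65.2 CPM in WT. WT replicate 1 lay within the KO range, and the gene did not pass (log2 fold change -0.19, SE 0.07, edgeR adjusted p = 0.214), although it did without that library (log2 fold change -0.26, adjusted p = 0.0284). Msmo1, which oxidises methyl groups of the ring, was at 76.2, 76.2 and 74.3 CPM in KO and 71.9, 62.1 and 75.6 CPM in WT. Its KO libraries spanned a narrow range close to the highest WT value. Nsdhl, the dehydrogenase that acts after Msmo1, was at 28.7, 27.2 and 26.6 CPM in KO and 29.2, 30.4 and 29.2 CPM in WT. The groups were separate but close (log2 fold change -0.10, edgeR adjusted p = 0.448).

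The remaining 4 enzymes of this stretch had overlapping libraries. Cyp51, the lanosterol demethylase, was at 165 ± 4.18 against 161 ± 6.14 CPM (95% interval of the log2 fold change -0.09 to 0.15). The reductase gene Tm7sf2 was at 35.8 ± 0.375 against 36.9 ± 2.12 CPM, the ketoreductase gene Hsd17b7 at 32.1 ± 3.004 against 31.9 ± 2.06 CPM and the sterol isomerase gene Ebp at 40.7 ± 1.41 against 42.3 ± 0.877 CPM. Tm7sf2 shares 12.1% of its exon bases with Vps51 on the same strand.

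The control genes gave 0 calls of 5 in edgeR, DESeq2 and limma-voom, and only Scap had an unadjusted p below 0.05. Srebf2, the main driver of the sterol genes, was at 218, 202 and 205 CPM in KO and 204, 231 and 224 CPM in WT. Srebf1, whose products act more on fatty acid genes, was at 53.2, 53.0 and 48.5 CPM in KO and 53.3, 55.3 and 61.8 CPM in WT. The Srebf1 libraries did not overlap, though KO replicate 1 and WT replicate 1 differed by little (log2 fold change -0.14, SE 0.07, edgeR adjusted p = 0.329). The ratio of Srebf2 to Srebf1, each per kilobase of exon, was 3.17 ± 0.164 in KO and 3.04 ± 0.225 in WT, with overlapping libraries.

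Scap was at 77.4, 75.3 and 72.6 CPM in KO and 66.9, 70.9 and 69.7 CPM in WT. All KO libraries were higher, and the gene did not pass (log2 fold change 0.12, SE 0.05, edgeR adjusted p = 0.274). Scap shares 13.2% of its exon bases with 5830462I19Rik on the opposite strand, and reads were counted without strand. Insig1, itself an SREBP target and a sensitive reporter of SREBP activity, was at 117, 115 and 114 CPM in KO and 98.9, 113 and 118 CPM in WT. The KO libraries lay within the WT range, near its top, with WT replicate 1 the low library. Insig2, which is not driven by SREBPs in the same way, was at 52.0, 49.4 and 51.2 CPM in KO and 54.5, 50.6 and 51.4 CPM in WT. The ratio of Insig1 to Insig2 per kilobase was 2.55 ± 0.0588 in KO and 2.38 ± 0.296 in WT, where WT replicate 1 stood at 2.04 and the other WT libraries at 2.51 and 2.58. Together, the 5 control genes summed to 501 ± 14.2 CPM in KO and 508 ± 26.6 CPM in WT.

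Stard4 and Lpin1 respond to SREBPs without being enzymes of the chain. Stard4, which carries sterol between membranes, was at 66.2, 58.8 and 63.6 CPM in KO and 72.4, 70.7 and 65.4 CPM in WT. KO replicate 1 lay above WT replicate 3, so the groups overlapped (log2 fold change -0.14, edgeR adjusted p = 0.272). Lpin1, a phosphatidate phosphatase, was at 29.8 ± 1.91 against 27.8 ± 1.55 CPM.

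Per kilobase of exon, levels in the WT cerebellum ranged widely along the pathway. Hmgcs1 was highest at 59.1 ± 3.39 RPKM (CPM per kilobase of exon), followed by Cyp51 at 36.6 ± 1.39 and Insig1 at 35.6 ± 3.23 RPKM, which did not differ beyond their spread. Mvd (33.5 ± 2.04), Pmvk (31.0 ± 1.65), Srebf2 (30.6 ± 2.00), Sqle (29.8 ± 0.663) and Acat2 (28.3 ± 0.844 RPKM) came next and overlapped with their neighbours in this order. With Fdps included, the median of the 26 genes was 15.3 RPKM. At the lower end, leaving out Fdps, were Lpin1 at 2.88 ± 0.16, Hsd17b7 at 6.25 ± 0.404 and Lss at 6.49 ± 0.229 RPKM, and the last pair did not differ beyond their spread. Lengths were those of all annotated exons of a gene together, so genes with long rare exons, such as Lss with 10787 bases, read lower than their main transcript would. The exons of 10 members overlap another annotated gene, by at most 26.7% of their bases (Fdps).

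**Figure D3:**
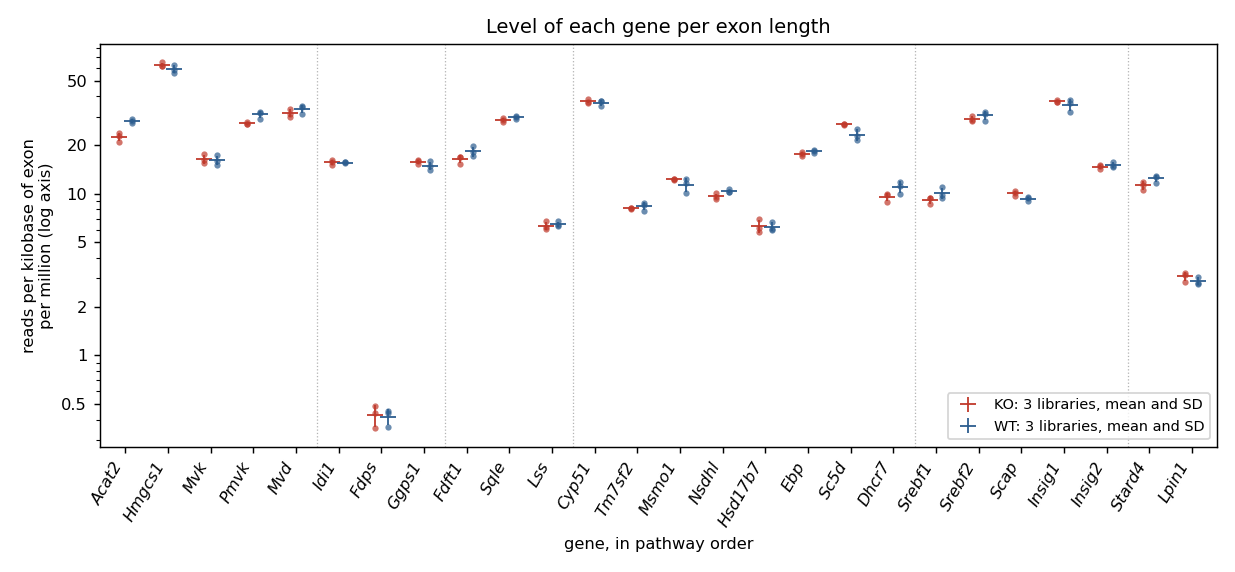
Level of each gene in RPKM on a log axis, with 1 point per library, the mean and SD of KO in red and of WT in blue, and genes in pathway order. Hmgcs1 is highest and Fdps, whose count is uncertain, lowest at 0.418 RPKM in WT, and the red and blue means lie side by side for nearly all genes.

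Over 6 further lists of related pathways, 77 of 80 genes were tested. Of these, 0 were higher and 0 lower in edgeR and in limma-voom, which called 1.66% and 1.71% of all genes. In edgeR 9 had an unadjusted p below 0.05 (3 higher, 6 lower), beside 17.6% of all genes. DESeq2, which called 3.08% of all genes, called 1 higher, Icmt, and 1 lower, Fads2. Without WT replicate 1, 3 of the 77 were called higher and 5 lower, in the fit that called 10.5% of all genes. Among 18 fatty acid synthesis genes the median log2 fold change was -0.06, and 1 higher and 4 lower genes had an unadjusted p below 0.05. The elongase gene Elovl5 was at 105 ± 0.77 against 122 ± 3.85 CPM (edgeR adjusted p = 0.0686), and the desaturase genes Fads2 and Fads1 were at 204 ± 21.6 against 244 ± 7.63 CPM and 184 ± 15.2 against 207 ± 11.5 CPM (adjusted p = 0.115 and 0.258).

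None of the other 5 lists held a gene that passed in edgeR. Among sterol enzymes outside the members, the mitochondrial thiolase gene Acat1 was at 165 ± 1.17 against 181 ± 8.11 CPM (edgeR adjusted p = 0.234). The 12 genes of SREBP cleavage and of the degradation of sterol sensors had a median of -0.01 and log2 fold changes between -0.10 and 0.05, none at an unadjusted p below 0.05. March6, a ubiquitin ligase gene, had the smallest p of these (213 ± 2.9997 against 227 ± 9.09 CPM), followed by the protease gene Mbtps2 and the ligase gene Rnf139. Sterol efflux and LXR genes had a median of 0.04 in 12 genes, with the apolipoprotein gene Apod at 106 ± 2.75 against 93.6 ± 5.30 CPM (adjusted p = 0.141), then Lcat and Mylip (adjusted p = 0.347 and 0.402). Uptake, trafficking and turnover genes had a median of -0.03 in 17 genes. The sterol hydroxylase gene Cyp27a1 was at 13.03 ± 0.848 against 10.95 ± 1.24 CPM, and Npc1 and Npc2, which export cholesterol from lysosomes, at 41.6 ± 1.39 against 45.8 ± 3.28 and 91.0 ± 1.23 against 97.7 ± 4.46 CPM. In the isoprenoid branches outside sterols (median -0.02, 13 genes), Icmt, which methylates prenylated proteins, was at 401 ± 15.03 against 343 ± 22.1 CPM (adjusted p = 0.113). Nus1 and Dhdds, the subunits of the dolichol-forming prenyltransferase, were at 76.4 ± 5.81 against 85.9 ± 1.29 and 59.8 ± 1.06 against 65.3 ± 4.53 CPM.

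Markers of some cell types did change. Of 16 oligodendrocyte and myelin markers 3 rose and 0 fell (0.784% and 0.872% of all genes in edgeR), with a median log2 fold change of 0.16. The 3 were Ermn (53.8 ± 2.01 against 40.2 ± 0.603 CPM), Hapln2 (23.0 ± 1.35 against 13.9 ± 2.42 CPM) and Cldn11 (355 ± 11.05 against 287 ± 14.1 CPM), with edgeR adjusted p values of 0.00468, 0.0162 and 0.0321. The summed level of the 16 was 14649 to 15378 CPM in KO and 13305 to 13454 CPM in WT, without overlap, whereas the summed levels of the 26 cholesterol and SREBP genes overlapped. Of 10 Purkinje cell markers 3 rose (Gng13, Pcp2 and Car8), with a sum of 4916 to 5138 CPM in KO and 4016 to 4341 CPM in WT. DESeq2, which called 3.08% of all genes in either direction, called 6 myelin and 5 Purkinje markers higher. Without KO replicate 2 the adjusted p of all 6 genes named here was above 0.05 (0.0557 to 0.189). No marker of any list was at 0.

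Astrocytes are another main source of cholesterol in the brain. Their 12 markers gave 0 calls in edgeR, DESeq2 and limma-voom, with 1 lower (Aldh1l1) at an unadjusted p below 0.05. Aldh1l1, S100b and Hopx had the smallest p, the median was 0.02, and the summed level was 5802 to 6034 CPM in KO and 5634 to 5940 CPM in WT. The 10 oligodendrocyte precursor markers gave 0 calls in edgeR and limma-voom and 1 lower in DESeq2 (C1ql1), with 4 lower at an unadjusted p below 0.05 (17.6% of all genes in either direction) and a median of -0.13. C1ql1, Gpr17 and Olig2 had the smallest p, and all 4 passed without WT replicate 1, where 10.5% of all genes did. The precursor sums were 597 to 647 CPM in KO and 646 to 752 CPM in WT.

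Of 12 choroid plexus markers 9 fell, beside 0.872% of all genes. The sum of all 12 was 213 to 771 CPM in KO and 1608 to 2908 CPM in WT. In WT most of it was Ttr, which did not pass (edgeR adjusted p = 0.154). Ttr was at 4.26, 220 and 431 CPM in KO and 1096, 1861 and 1995 CPM in WT. Enpp2 was at 194, 260 and 302 CPM in KO and 444, 562 and 796 CPM in WT. In KO replicate 1, most of the sum was Enpp2. The 9 that fell were Aqp1, Folr1, Enpp2, Slc4a5, Kl, Kcne2, Kcnj13, Sostdc1 and F5. Without KO replicate 2, or without WT replicate 2, only 2 of the markers of all cell types were still called lower. The part of any of these cell types in the level of Acat2 or of the other cholesterol genes was not tested.

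Granule cell markers gave 0 calls of 10 in edgeR and limma-voom, with a median of 0.00. Zic1 was higher at an unadjusted p below 0.05 and in DESeq2, followed in p by Neurod2 and Reln. The 10 microglia markers gave 0 calls in edgeR, DESeq2 and limma-voom, with 1 higher at an unadjusted p below 0.05 (Fcrls), followed by C1qb and Tmem119. The 10 endothelial and mural markers gave 0 calls in edgeR and limma-voom and 1 lower in DESeq2 (Rgs5), the 1 gene also lower at an unadjusted p below 0.05, followed by Vtn and Slco1a4. The 10 dividing cell markers gave 0 calls in all 3 tools and a median of -0.29, with all log2 fold changes below 0 (-0.39 to -0.07). Top2a and Mki67 were lower at an unadjusted p below 0.05 (17.6% of all genes in either direction), with Ccna2 next. Without WT replicate 1, where 10.5% of all genes passed, Top2a and Mki67 were called lower. Of 5 red blood cell genes 1 fell, Hba-a1 (beside 0.872% of all genes), followed in p by Hba-a2 and Hbb-bt. Hba-a1 and Hba-a2 are near-identical copies, which makes the count of each uncertain.

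**Figure D4:**
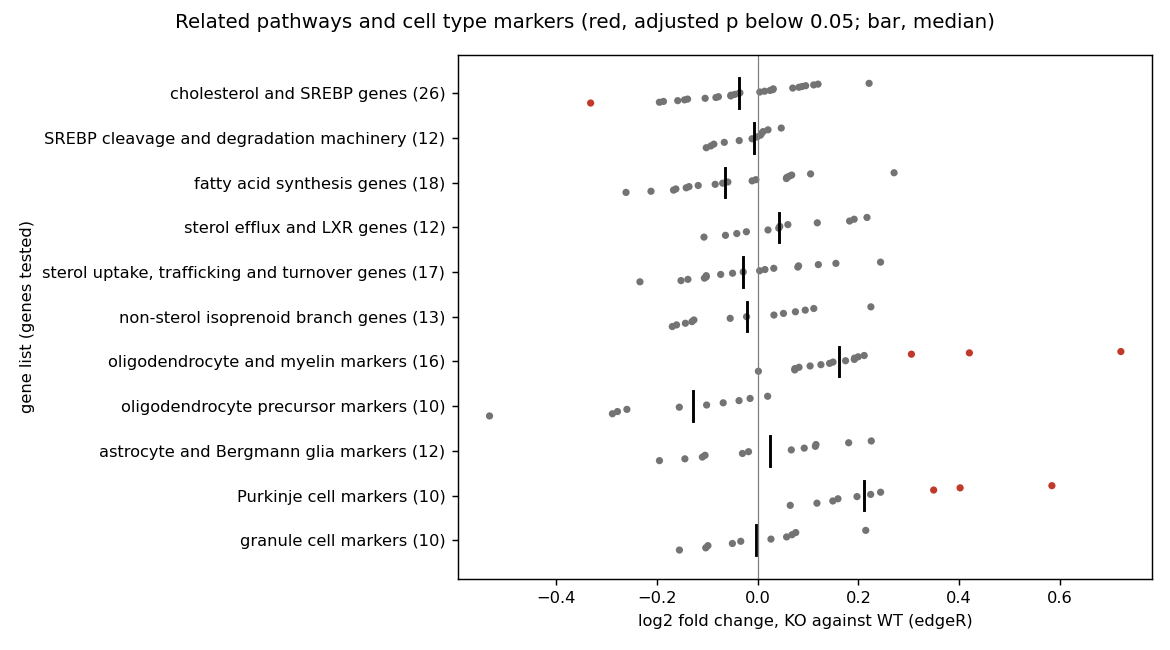
Log2 fold change in KO against WT (horizontal axis) of every tested gene of the members, 5 of the 6 related lists and 5 cell type lists, with 1 point per gene, red where the adjusted p was below 0.05, and a bar at the list's median. The related lists shown centre near 0, and the medians of myelin and Purkinje markers are 0.16 and 0.21.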

How the data were processed

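Per the labels' protocols, Trizol RNA was treated with DNase I, and TruSeq libraries were read as paired ends on a HiSeq sequencer. The authors deposited raw counts of reads per gene. The submitters' processing notes name STAR 2.7.5a, edgeR 3.12 and the builds mm10 and GRCm38, and file names carry Ensembl release 102. How STAR was set to count is not stated in the labels. The column counted without strand was used, since the strand columns held equal shares (49.9% to 50.0% in the first). Unmapped reads made up 6.52% to 17.2%, multimapping reads 3.72% to 4.29% and ambiguous reads 3.95% to 4.44% of all reads, and these lines stayed out of library sizes and tests. No molecular identifiers are named, so reads may be PCR copies.

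Symbols, positions and exon lengths came from GENCODE release 21 of the mouse (GRCm38), which matched 55227 of 55487 identifiers (99.5%). KO was set against WT in R 4.3.3 by edgeR 4.0.16 (TMM scaling, default filter with minimum count 10 and minimum total 15, two-sided quasi-likelihood F test, Benjamini-Hochberg over 18237 genes). CPM and RPKM were computed from the counts with TMM library sizes. SEs came from the log2 fold change and F, and 95% intervals used 10.36 degrees of freedom. Alternatives were median-of-ratios and upper-quartile scaling, no filter, 1 CPM in 3 libraries, DESeq2 1.42.0, limma-voom (limma 3.58.1), offsets for GC content and leaving out each library. The steps were tested on simulated counts.

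Groups came from the strain label, and replicate numbers, given in accession order, serve as names. The members and lists were chosen with earlier results of these data known. All members are named. Values per library are given for called members, the 10 with the smallest p and the SREBP control genes, and of each other list the called genes and the 3 with the smallest p are named. Lists are described by counts and medians, without a set test. The results of 2 genes that this rule selects are not reported here.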

Additional observations from a re-analysis of the deposited data

How the results depend on the processing

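The log2 fold changes of the members kept their direction and their side of the threshold in 318 of 338 alternative values. Acat2 passed in all 7 alternatives that kept every library (adjusted p from 0.000116 to 0.0311). All reversals were among genes that did not pass. GC content offsets reversed Idi1 (-0.0090). Leaving out libraries reversed Mvk (log2 fold change from -0.027 to 0.079), Idi1 (-0.021 to 0.030), Fdps (-0.078 to 0.14), Cyp51 (-0.0023 to 0.050), Hsd17b7 (-0.065 to 0.073) and Insig1 (-0.0040 to 0.13).

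Without 1 library each, there were 0 to 3 lower members and 0 to 1 higher, 28 to 959 higher and 53 to 962 lower genes over all, 0 to 3 higher and 0 to 5 lower genes in the related lists, and 1 to 13 higher and 2 to 20 lower cell type markers. The 3 lower members, Acat2, Pmvk and Dhcr7, and the highest of the other counts came without WT replicate 1, except the 1 higher member, Sc5d, which came without WT replicate 3. With no filter on low counts there were 1 higher member (Sc5d), 803 higher and 820 lower genes over all, 2 higher and 2 lower in the related lists, and 12 higher and 21 lower markers. DESeq2 gave 290 higher and 272 lower genes, 1 and 1 in the related lists and 12 higher markers. The causes were not tested. The median of the members stayed between -0.07 and -0.01. No paired analysis was possible because the labels give the groups no shared replicate numbers. Fdps, with 26 to 61 counts, is the member that depth limits most, and the other members had at least 463 counts in every library.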
